A study of Mus musculus with 80 samples.

Results

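Whole lungs of wild-type and CYP2F2 knockout mice were compared for their response to 40 ppm of inhaled styrene, the vinyl aromatic monomer of polystyrene. The arrays are those titled C57Bl/6 WT and C57Bl/6 KO at 0 and at 40 ppm, 20 of the 80 arrays of the series, with 5 biological replicates in each of the 4 groups. For each gene the quantity described is the change in WT (40 minus 0 ppm) less the change in KO (40 minus 0 ppm), here called the difference in response. A positive value means that the change was higher in WT.

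The mice were adult males from Taconic and breathed air (0 ppm) or styrene once for 6 h, and the lungs were removed the next morning, per the labels' protocols. WT denotes C57Bl/6 mice with an intact Cyp2f2 gene. KO denotes C57Bl/6 mice in which CYP2F2 was knocked out. Which part of the gene was removed, and how far the line was backcrossed, is not stated in the labels. Each array holds total RNA of the whole organ, so airway lining, alveoli, vessels and blood cells are read together.

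CYP2F2 is a cytochrome P450 of the mouse club cell, the secretory cell of the conducting airway, and it oxidizes styrene to reactive products in the lung. Interferons are the signals that cells release on sensing viral or misplaced nucleic acid. Type I interferon acts through its receptor, the kinases JAK1 and TYK2 and factors that include STAT2 and IRF9, which bind the interferon-stimulated response element and switch on a large set of antiviral genes.

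Genes of that set led the difference in response, and the promoters of 4 of them are shown because they carry the core letters of the element. The sequences are RefSeq's (GRCm38.p6) and give the 250 bases before the annotated transcription start, 5′ to 3′ on the strand of the gene, in the gene's upstream flank. Capitals mark each match on either strand to the core of that element, GAAA, then any 2 bases, then GAAA. They come from Cxcl10 (chr5:92348890-92349139, minus strand), Rsad2 (chr12:26456453-26456702, minus strand), Ifit1 (chr19:34640639-34640888, plus strand) and Irgm1 (chr11:48871421-48871670, minus strand).
Cxcl10: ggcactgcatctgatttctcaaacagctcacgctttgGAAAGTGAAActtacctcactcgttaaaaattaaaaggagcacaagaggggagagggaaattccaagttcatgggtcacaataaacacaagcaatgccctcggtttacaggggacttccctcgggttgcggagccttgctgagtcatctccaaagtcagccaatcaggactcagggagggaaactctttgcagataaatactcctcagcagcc
Rsad2: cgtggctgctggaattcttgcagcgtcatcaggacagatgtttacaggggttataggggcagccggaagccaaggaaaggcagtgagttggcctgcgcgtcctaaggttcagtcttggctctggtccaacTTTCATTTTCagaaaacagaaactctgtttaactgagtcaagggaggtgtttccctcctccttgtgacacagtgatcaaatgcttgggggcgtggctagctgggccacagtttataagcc
Ifit1: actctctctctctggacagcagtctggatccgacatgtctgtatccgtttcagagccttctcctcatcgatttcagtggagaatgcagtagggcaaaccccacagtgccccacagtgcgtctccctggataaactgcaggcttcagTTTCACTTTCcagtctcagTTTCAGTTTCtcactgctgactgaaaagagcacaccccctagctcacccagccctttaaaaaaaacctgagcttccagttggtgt
Irgm1: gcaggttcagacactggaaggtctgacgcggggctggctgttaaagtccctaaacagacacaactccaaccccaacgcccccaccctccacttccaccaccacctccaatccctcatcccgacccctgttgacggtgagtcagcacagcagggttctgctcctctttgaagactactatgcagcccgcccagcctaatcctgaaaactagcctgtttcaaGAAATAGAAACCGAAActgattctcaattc

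The match lay 213 to 204 bases before the start in Cxcl10 and 120 to 111 in Rsad2. Ifit1 held a match at 104 to 95 and another at 85 to 76, and Irgm1 held overlapping matches at 30 to 21 and 24 to 15. How common these letters are among the genes of each group is given below.

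The deposited values are log2 signals. Array medians were 4.55 to 4.59 in WT at 0 ppm, 4.53 to 4.60 in WT at 40 ppm, 4.16 to 4.20 in KO at 0 ppm and 4.12 to 4.17 in KO at 40 ppm. The median gene was 0.36 lower in KO than in WT in air, and 9360 of 11406 genes (82.1%) differed between the strains in air by limma at an adjusted p under 0.05, most of them lower in KO (81.4% of genes). With each array centred on its median that number was 2345. Each strain is set against its own air group here, so a constant shift between strains drops out of the difference in response. Arrays of a group correlated at 0.986 to 0.996 over probe sets.

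A pair of WT arrays stood apart. WT 0 ppm replicate 1 and WT 40 ppm replicate 3 had mean levels of 10.31 and 10.09 for the squamous epithelium markers Krt4 and Krt5, where the other 18 arrays ranged from 3.19 to 4.19. Each sits in a different WT group. Results without both arrays are given where a call was lost or a count moved by more than 1.5-fold, and for the totals.

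The targeted gene was examined first. Cyp2f2 read 13.20, 13.27, 13.26, 13.21 and 13.23 in the 5 WT air arrays and 12.37, 12.13, 12.04, 12.17 and 12.59 in the 5 WT arrays at 40 ppm. In KO it read 11.57 to 11.81 in air and 11.61 to 11.71 at 40 ppm. Every WT array at 40 ppm lay below every WT air array, and the KO groups overlapped. Cyp2f2 fell in WT by 0.97 ± 0.08 (SE, n = 5 against 5, adjusted p = 2.31e-08), and its KO change was -0.02 with a 95% interval of -0.19 to 0.14. The difference in response was -0.95 ± 0.11 (adjusted p = 9.48e-06). In air, Cyp2f2 was lower in KO than in WT by 1.19 beyond the median shift. Cyp2f2 was read by 1 probe set, and the labels do not say whether it falls inside the deletion, so its signal in KO carries no statement about transcript.

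The difference in response was called for 1544 of 11406 genes (13.5%, limma, adjusted p under 0.05). The change was higher in WT for 808 genes (7.08%) and lower in WT for 736 (6.45%). Of these, 354 and 254 exceeded 1.5-fold. At an unadjusted p under 0.05 there were 3141 genes, where 570.3 were expected from the level of the test alone. The median difference over all genes was -0.01 and the median standard error 0.12. Without both WT arrays that stood apart, 1251 genes were called (690 higher and 561 lower), 1153 of them among the 1544.

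The WT arm by itself held 2934 called genes (25.7%), 1535 that rose (13.5%) and 1399 that fell (12.3%). Without both WT arrays that stood apart the WT arm held 2397 called genes. In the KO arm no gene was called by limma (0% of 11406), also with trended and robust variance. There, 628 genes had an unadjusted p under 0.05 against 570.3 expected, and the lowest adjusted p was 0.464. Without KO 0 ppm replicate 4 a single gene passed in KO, Fam110a (-0.46 ± 0.07, adjusted p = 0.0474), named after its value was seen. The fit pools the spread of all 4 groups, so both arms have the same standard error by construction. With each strain fitted alone, over its 20 arrays at all 4 doses, the median standard error was 0.083 in WT and 0.089 in KO. The spread of changes over genes was 0.329 (SD) in WT and 0.113 in KO.

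For most called genes the larger part of the difference lay in the WT arm. The WT part of a difference is the WT change divided by the difference, and its median over the 1544 genes was 0.88. It was 0.75 or more in 1173 genes (76%) and between 0.25 and 0.75 in 368. Over all 11406 genes the median was 0.82 and the share at 0.75 or more 55.8%. Only Plgrkt, Slc35a4 and Wfdc6a had a WT part under 0.25, and these were named after their values were seen. Wfdc6a, a gene of the WFDC family of protease inhibitors, read 4.80 to 5.28 in KO air and 4.37 to 4.65 in KO at 40 ppm, without overlap, and 4.82 to 5.43 over all 10 WT arrays. Its difference was 0.62 ± 0.15 (adjusted p = 0.00921), and it was lost in the fit of all 80 arrays (0.0736). Plgrkt (-0.33 ± 0.10, adjusted p = 0.0388) lost its call in 16 alternatives, among them the fit without both WT arrays that stood apart (0.108). Slc35a4 (0.30 ± 0.09, 0.0254) lost its call in the fit of all 80 arrays and with the mean of its probe sets (0.198).

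**Figure D1:**
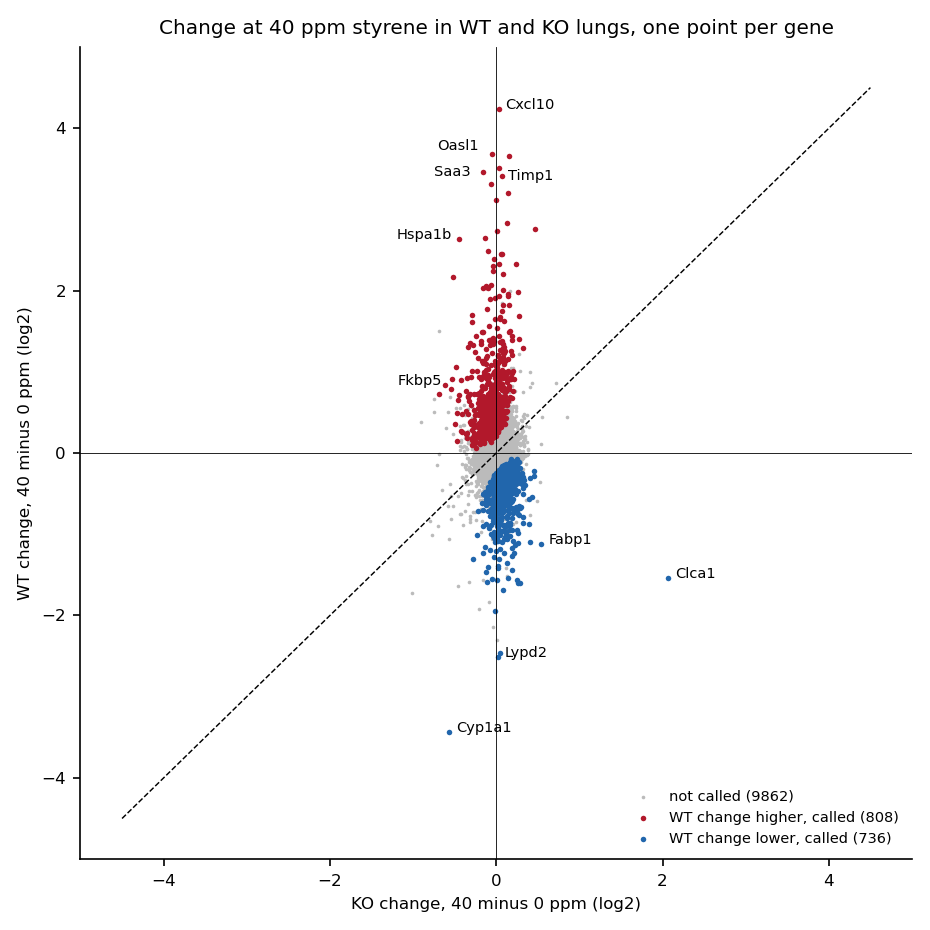
Change at 40 ppm in KO (x axis, log2) against change in WT (y axis, log2), one point per tested gene, with called differences in colour and a dashed line where the changes are equal. The points spread along the WT axis up to 4.23 for Cxcl10 and down to -3.43 for Cyp1a1, while nearly all KO changes lie close to 0 and Clca1 at 2.07 lies farthest out.

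Genes that moved most in WT had KO changes centred on 0. Among the 129 genes that rose more than 2-fold in WT, the median change was 1.39 in WT and 0.01 in KO, 69 had a KO change of the same sign and the difference was called for 93.8% of them. Among the 56 that fell more than 2-fold in WT, the medians were -1.25 and 0.02, 21 had the same sign in KO and 89.3% were called. Over all 11406 genes the signs were the same in 48.3% and the difference was called for 13.5%. The WT change is a term of the difference, so choosing genes by a large WT change by itself raises the share called. Across genes, which are not independent replicates, the WT and KO changes had a Pearson r of -0.05 and a Spearman rho of -0.05. The arms share no arrays.

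The largest positive difference was that of the interferon-induced gene Cxcl10. Cxcl10, a chemokine that draws T cells, read 4.29, 3.58, 3.53, 3.59 and 3.33 in WT air and 7.91, 6.32, 7.16, 9.18 and 8.90 in WT at 40 ppm. In KO it read 3.35 to 3.96 in air and 3.56 to 3.88 at 40 ppm. All exposed WT arrays lay above every other array, and the KO groups overlapped. Cxcl10 rose in WT by 4.23 ± 0.36 (adjusted p = 5.5e-08). Its KO change was 0.03 (95% interval -0.73 to 0.79), and the difference in response was 4.20 ± 0.52 (adjusted p = 1.58e-05).

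Oasl1, a regulator of the antiviral response, read 4.78, 3.99, 3.93, 4.46 and 4.18 in WT air and 7.78, 7.30, 7.61, 8.31 and 8.74 in WT at 40 ppm. The KO arrays read 3.96 to 4.19 in air and 3.75 to 4.15 at 40 ppm, again with overlap in KO only. The difference was 3.74 ± 0.29 (adjusted p = 5.27e-08). Mx1, an antiviral GTPase, read 3.85 to 4.63 in WT air, 6.90 to 8.38 in WT at 40 ppm and 3.41 to 3.68 over both KO groups, with a difference of 3.48 ± 0.29. Rsad2, the antiviral enzyme viperin, read 6.53 to 7.60, 9.56 to 10.84, 6.67 to 7.32 and 6.31 to 7.41 in the same order of groups (WT air, WT 40 ppm, KO air, KO 40 ppm), with a difference of 3.37 ± 0.34. The exposed WT arrays again stood alone for both genes. The level minimum was 4.28, the median of the table. All KO arrays read Cxcl10, Oasl1 and Mx1 below it, as did 4 of 5 WT air arrays for Cxcl10, so these changes start from values that the array resolves poorly. Of the genes named below, Prss22, Il6, Ccl2, Ccl7, Ccl12, Hmgcs1 and Pole read below it in every WT air array and every KO array. They were tested only because arrays of other groups read above it. Those groups include WT at 40 ppm, a side of this comparison, where Prss22 read 6.05 to 7.30. That such genes were tested is therefore no separate support for their calls, and the list counts that include them carry this limit.

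The interferon genes are given by role, and the roles were not tested against each other. For these and all later lists, counts of called members stand beside 7.08% of all genes called higher and 6.45% called lower. The ligand genes Ifnb1, Ifng, Ifna1, Ifna2 and Ifna4 were below the level minimum and were not tested. None of the 7 tested receptor and kinase genes was called in either direction, and 2 of them were at an unadjusted p under 0.05 (Ifngr1, 0.25 ± 0.10, and Ifngr2, 0.35 ± 0.14, called without KO 0 ppm replicate 2). Among transcription factors 3 of 10 were called, all higher: Irf7 (2.73 ± 0.24), the factor that amplifies the type I response, Stat2 (1.49 ± 0.20) and Irf9 (0.75 ± 0.16). Stat2 read 6.05 to 6.18 in WT air and 6.90 to 7.84 in WT at 40 ppm, against 5.85 to 6.50 and 5.70 to 5.99 in KO. Isg15 had no probe set with its symbol alone and was not analysed here.

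Nucleic acid sensors were called higher in 7 of 10 and lower in none, with a median difference of 0.74 against -0.01 over all genes. Zbp1, a sensor of Z-form nucleic acid, differed by 2.78 ± 0.38. Dhx58, which encodes the RNA sensor LGP2, differed by 2.34 ± 0.22 and Ifih1, which encodes MDA5, by 1.02 ± 0.19. Dhx58 read 5.40 to 5.66 in WT air and 7.28 to 8.42 in WT at 40 ppm, and with the mean of its probe sets its difference was 1.46.

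Antiviral effectors were called higher in 15 of 16, against 7.08% of all genes, with a median change of 2.05 in WT and -0.05 in KO. Ifit1, which binds viral RNA, differed by 2.70 ± 0.27, Ifit3 by 2.09 ± 0.25 and Ifit2 by 1.92 ± 0.29. In the ISG15 pathway, which tags proteins with a ubiquitin-like modifier, 3 of 4 were called higher. Its protease Usp18 differed by 2.12 ± 0.21 and its ligase Herc6 by 1.23 ± 0.24, while the call of Uba7 (0.48 ± 0.15, adjusted p = 0.0334) was lost in 8 alternatives, all with 1 array left out.

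Interferon-inducible GTPases, which act against intracellular microbes, were called higher in 7 of 9. Irgm1 read 7.28 to 7.77 in WT air and 8.44 to 9.32 in WT at 40 ppm and differed by 1.57 ± 0.24. Iigp1 differed by 1.69 ± 0.39, Tgtp1 by 1.67 ± 0.41 and Igtp by 1.55 ± 0.40. KO 0 ppm replicate 1 stood high for this list, at a mean level of 9.26 where the other KO air arrays read 7.92 to 8.41. Without it 6 of the 9 were called, without both WT arrays that stood apart 5, and without KO 40 ppm replicate 2 only 4. MHC class I presentation genes were called higher in 3 of 9, namely Nlrc5 (1.44 ± 0.37), Psmb8 and Psme2. The calls of Psmb8 (adjusted p = 0.0362) and Psme2 (0.0474) were lost in 13 and 19 alternatives (Psmb8 at 0.57, adjusted p = 0.0587, without both WT arrays that stood apart), and without KO 0 ppm replicate 1 the count was 1. Over the 8 interferon lists together, 40 of 67 tested genes were called higher and none lower, and 45 rose and none fell in WT. These lists were chosen knowing that interferon genes had risen in WT, so their direction is no independent evidence.

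The core letters GAAA, any 2 bases and GAAA occurred on either strand, in windows from 250 bases before to 50 after the start, in 3.69% of the 9205 tested genes with a RefSeq promoter. Among genes with a RefSeq promoter, they occurred in 7.38% of genes called higher in WT and in 12.9% of those also over 1.5-fold (36 of 279). Over 4-fold there were 29 genes, of which 19 had a RefSeq promoter, and 10 of the 19 held the letters. Among genes called lower the share was 3.92%. The antiviral effectors held them in 7 of the 13 with a RefSeq promoter and the interferon-inducible GTPases in 7 of the 8 with one. A match describes letters in this window and is not a measured binding site.

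**Figure D2:**
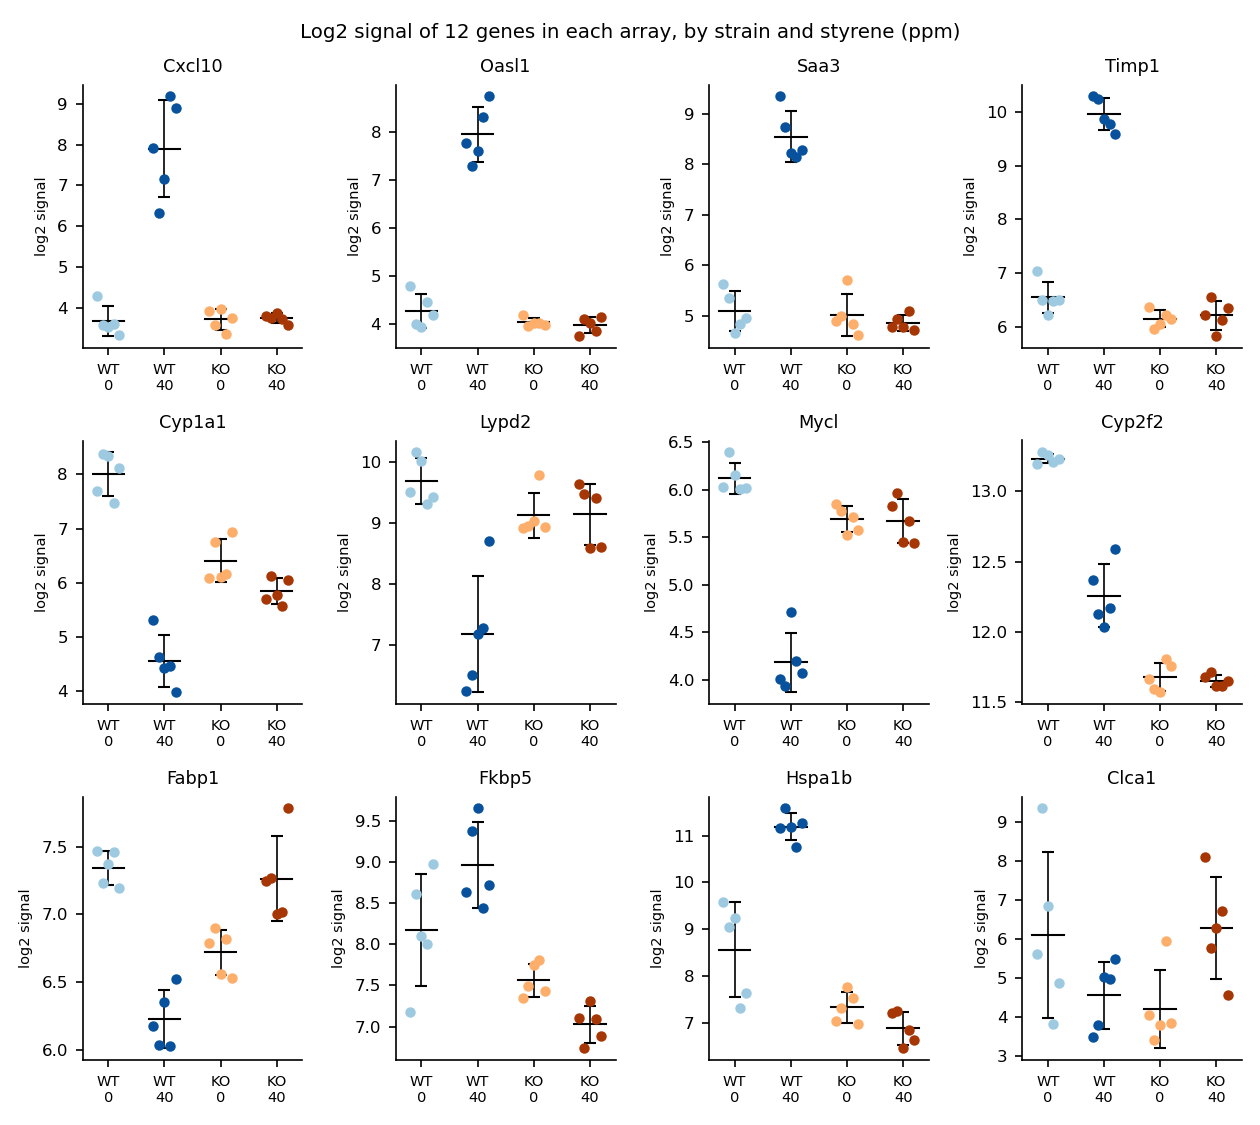
Log2 signal (y axis) of 12 genes in each array of the 4 groups, with points for arrays and black bars for the mean and SD (n = 5). Cxcl10, Oasl1, Saa3 and Timp1 are high in the WT arrays at 40 ppm alone, and Cyp1a1 and Mycl are lowest there. Lypd2 is lower there than in WT air, with replicate 5 within the range of KO, and the Clca1 groups overlap in both strains.

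Acute phase and IL-6 signalling genes were called higher in 8 of 14 and lower in 1 (Hp, whose call was lost without both WT arrays that stood apart and without KO 0 ppm replicate 4), with a median difference of 0.79. Timp1, an inhibitor of matrix proteases, read 7.03, 6.50, 6.23, 6.49 and 6.50 in WT air and 10.29, 10.25, 9.87, 9.79 and 9.60 in WT at 40 ppm. The KO arrays read 5.96 to 6.38 in air and 5.83 to 6.56 at 40 ppm. The exposed WT arrays stood clear of the rest, and the difference was 3.34 ± 0.22 (adjusted p = 1.41e-08, the lowest of all genes together with Serpina3n). Saa3, an acute phase protein of epithelium and macrophages, read 4.67 to 5.64 in WT air, 8.14 to 9.34 in WT at 40 ppm and 4.62 to 5.71 over both KO groups, with a difference of 3.61 ± 0.32. Serpina3n, a protease inhibitor, differed by 1.98 ± 0.13, Lcn2, an iron-binding defence protein, by 1.60 ± 0.20 and Socs3, a feedback inhibitor of cytokine signalling, by 1.26 ± 0.14.

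Among inflammatory cytokines and chemokines 6 of 14 were called higher and none lower. The monocyte-drawing chemokines differed by 2.42 ± 0.21 (Ccl7), 2.30 ± 0.25 (Ccl12) and 1.93 ± 0.21 (Ccl2). Il6 read 2.84 to 3.07 in WT air and 4.17 to 5.44 in WT at 40 ppm, and 2.14 to 2.54 over both KO groups, with a difference of 1.82 ± 0.22. Of the 9 tested neutrophil markers 1 was called higher and none lower, near the shares of all genes (7.08% and 6.45%). The list had a mean level of 5.03 to 5.62 in WT air and 5.38 to 5.43 in WT at 40 ppm. In the macrophage list 3 of 11 were called lower in WT and 1 higher, against 6.45% and 7.08% of all genes. Over the 11 the median change was 0.06 in WT and 0.11 in KO, and the median difference 0.11. In WT 3 of them rose and 4 fell, so the falls below are those of part of the list. Siglecf, a marker of alveolar macrophages, read 7.01 to 7.46 in WT air and 6.16 to 6.43 in WT at 40 ppm, without overlap, against 6.91 to 7.61 over both KO groups. It differed by -1.05 ± 0.15, Csf1r, the receptor for macrophage colony-stimulating factor, by -0.64 ± 0.10 and the integrin gene Itgax by -0.52 ± 0.12. The call of Ctsk (0.52 ± 0.16, adjusted p = 0.0412) was lost in 17 alternatives, at 0.53 (0.0668) without both WT arrays that stood apart.

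Other leading positive differences were those of Prss22, a serine protease of airway epithelium (3.12 ± 0.24), the interferon-induced apolipoprotein gene Apol9a (3.06 ± 0.31) and the predicted gene Gm9706 (3.50 ± 0.26). The probe set of Gm9706 is of a type that can share sequence with other transcripts, and with the mean of its probe sets the difference was 1.99. Prss22 read 3.38 to 4.01 in WT air, 6.05 to 7.30 in WT at 40 ppm and 3.07 to 3.25 over both KO groups. Hspa1b, an inducible HSP70 chaperone, read 9.57, 9.04, 9.23, 7.30 and 7.64 in WT air, so the air arrays themselves spread over more than 2 log2 units, and 10.76 to 11.58 in WT at 40 ppm. Its difference was 3.09 ± 0.47, but of the 9 tested heat shock genes it was the only one called, and 2 were called without WT 0 ppm replicate 2. Hspa1b is nearly identical to Hspa1a, and the array may read both.

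Genes of styrene oxidation and hydrolysis were called lower in 4 of 10 and higher in none, against 6.45% and 7.08% of all genes. The 4 include the targeted gene Cyp2f2, whose signal in KO carries no statement about transcript. Over the 10 the median change was -0.18 in WT and -0.11 in KO, and the median difference -0.03, so the middle of the list hardly differed. The mean level of the list was 9.422 in WT air and 8.904 in WT at 40 ppm, against 8.585 and 8.431 in KO. Cyp1a1, a P450 under control of the aryl hydrocarbon receptor, read 7.68, 8.38, 8.34, 7.47 and 8.11 in WT air and 5.31, 4.63, 4.43, 4.47 and 3.99 in WT at 40 ppm. In KO it read 6.09, 6.75, 6.12, 6.16 and 6.94 in air and 5.70, 6.12, 5.78, 5.57 and 6.06 at 40 ppm, so the KO groups overlapped slightly. It fell in WT by 3.43 ± 0.23 (10.8-fold, adjusted p = 1.52e-09). Its KO change was -0.56 (95% interval -1.03 to -0.09, adjusted p = 0.866), and the difference was -2.87 ± 0.32 (4.6e-06). Cyp1a1 was lower in KO than in WT in air, by 1.22 beyond the median shift. Ephx1, the epoxide hydrolase that hydrolyses styrene oxide, differed by -0.59 ± 0.10 and the electron donor Cyb5a by -0.30 ± 0.08. Cyp2e1, the other main styrene-oxidizing P450, had a difference of 0.74 ± 0.78 (adjusted p = 0.592) and Cyp4b1, a lung P450, one of 0.11 ± 0.09 (0.426).

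Of 6 tested targets of the aryl hydrocarbon receptor, Cyp1a1 was called lower and Nqo1, a quinone reductase, higher (1.05 ± 0.16). Nqo1 is also in the NRF2 list. Without WT 0 ppm replicate 2 the list had 2 called lower. Tiparp, a feedback repressor of the receptor, had a difference of 0.20 ± 0.10 (adjusted p = 0.226). Aldehyde and carbonyl metabolism genes were called lower in 5 of 16 and higher in 1, the reductase gene Akr1b8 (1.15 ± 0.16), with 2 called higher without KO 40 ppm replicate 2. Aox3, an aldehyde oxidase, read 9.70 to 9.89 in WT air and 8.41 to 8.72 in WT at 40 ppm, while both KO groups lay between 8.91 and 9.42. Its difference was -1.21 ± 0.12 (adjusted p = 1.19e-06). Aldh1a7, a cytosolic aldehyde dehydrogenase, differed by -0.77 ± 0.09 and Cbr2, a lung carbonyl reductase, by -0.47 ± 0.06.

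Esterases and conjugating enzymes were called lower in 10 of 20 and higher in 3, against 6.45% and 7.08% of all genes. Pon1, the esterase paraoxonase, read 10.42 to 10.68 in WT air and 8.41 to 9.41 in WT at 40 ppm, and 9.75 to 10.30 over both KO groups, with a difference of -1.49 ± 0.21. The carboxylesterase genes Ces1d and Ces1f differed by -0.74 ± 0.08 and -1.77 ± 0.32. Ces1f read 2.71 to 3.56 over both KO groups, below the level minimum of 4.28, and was lower in KO than in WT in air by 2.40 beyond the median shift, so there was little room to measure a fall in KO. Its probe set is also of the type that can share sequence. Mgst1, a microsomal glutathione transferase, differed by -0.38 ± 0.07. The count of esterases and conjugating enzymes called lower was 7 without both WT arrays that stood apart, and the count called higher was 1 without KO 0 ppm replicate 3.

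Genes of the club cell were called lower in 8 of 14 and higher in none, against 6.45% and 7.08% of all genes. Their median change was -0.92 in WT and -0.02 in KO, and 11 of 14 fell in WT, against 12.3% of all genes. Scgb3a2, a secretoglobin of club cells, read 13.27 to 13.42 in WT air and 11.99 to 12.70 in WT at 40 ppm, without overlap, and 13.12 to 13.27 over both KO groups. Its difference was -1.08 ± 0.13 (adjusted p = 1.27e-05). Scgb1a1, the defining secretoglobin, read 13.81 to 13.85 in WT air and 13.65 to 13.76 in WT at 40 ppm, near the highest value of the table (13.89), and its difference was -0.14 ± 0.06 (adjusted p = 0.138). Both were named after their values were seen. The mean level of the list was 11.32 to 11.82 in WT air, and 10.28 to 10.72 in 4 WT arrays at 40 ppm with replicate 5 at 11.43. In whole lung, fewer club cells and less RNA per cell cannot be told apart. Cyp2f2, Aox3, Pon1, Ces1d, Cbr2 and Aldh1a7 are in this list too. The targeted gene Cyp2f2 is among the 8 called lower, with the same limit on its KO signal.

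Airway mucus and secretion genes had the lowest median change in WT, -1.60 against 0.06 in KO, among the 31 lists described, but 3 of 12 were called, all lower. These 3, Lypd2, Chad and Pigr, are also among the 12 largest negative differences. The list was chosen with earlier results of these data known, so its count is no independent evidence. Without WT 40 ppm replicate 5, the highest exposed WT array for this list, 6 were called lower. Lypd2, an airway gene of the LY6 family, read 9.51, 10.17, 10.03, 9.32 and 9.44 in WT air and 6.24, 6.50, 7.17, 7.27 and 8.70 in WT at 40 ppm. In KO it read 8.92 to 9.79 in air and 8.59 to 9.65 at 40 ppm. The exposed WT arrays lay below the WT air arrays, with replicate 5 nearest to them, and the difference was -2.54 ± 0.49. Chad, the matrix protein chondroadherin, differed by -2.51 ± 0.47, and WT 40 ppm replicate 5 read 7.97 where the other 4 read 5.74 to 6.28. Pigr, which carries antibody across epithelium, differed by -1.89 ± 0.44, and its WT groups overlapped through the same replicate (8.23 against 8.09 to 9.07 in air). Muc5b, a secreted airway mucin, had a difference of -2.10 ± 0.70 (adjusted p = 0.0523), which passed without WT 40 ppm replicate 5 and in 5 other alternatives.

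Ciliated cell genes were called lower in 4 of 13, against 6.45% of all genes, among them Ccdc153 (-1.01 ± 0.21), Cdhr3 (-0.90 ± 0.24) and Tppp3 (-0.54 ± 0.09). Alveolar type 1 genes were called lower in 1 of 9 and alveolar type 2 genes higher in 1 of 10, shares near those of all genes (6.45% and 7.08%). Among pericyte and smooth muscle genes 3 of 7 were called higher, against 7.08% of all genes. Acta2, smooth muscle actin, read 10.44 to 11.06 in WT air and 11.14 to 11.66 in WT at 40 ppm, and 10.54 to 10.95 and 10.22 to 10.53 in KO. Neither strain's groups overlapped, and the changes had opposite signs. The difference was 1.14 ± 0.16 (0.66 with the mean of its probe sets), and Actg2 and Des differed by 1.25 ± 0.26 and 0.71 ± 0.17. Endothelial genes were called lower in 2 of 12 against 6.45% of all genes, Aplnr, the apelin receptor (-1.07 ± 0.27), and Tie1 (-0.39 ± 0.12). The call of Tie1 was lost in 8 alternatives, at -0.33 (adjusted p = 0.0826) without both WT arrays that stood apart, and the count was 1 without KO 0 ppm replicate 3. Cardiac muscle genes, which mark heart or pulmonary vein tissue in the sample, had none of 8 called by limma (0 at an unadjusted p under 0.05), with median changes of -0.53 in WT and -0.48 in KO.

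**Figure D3:**
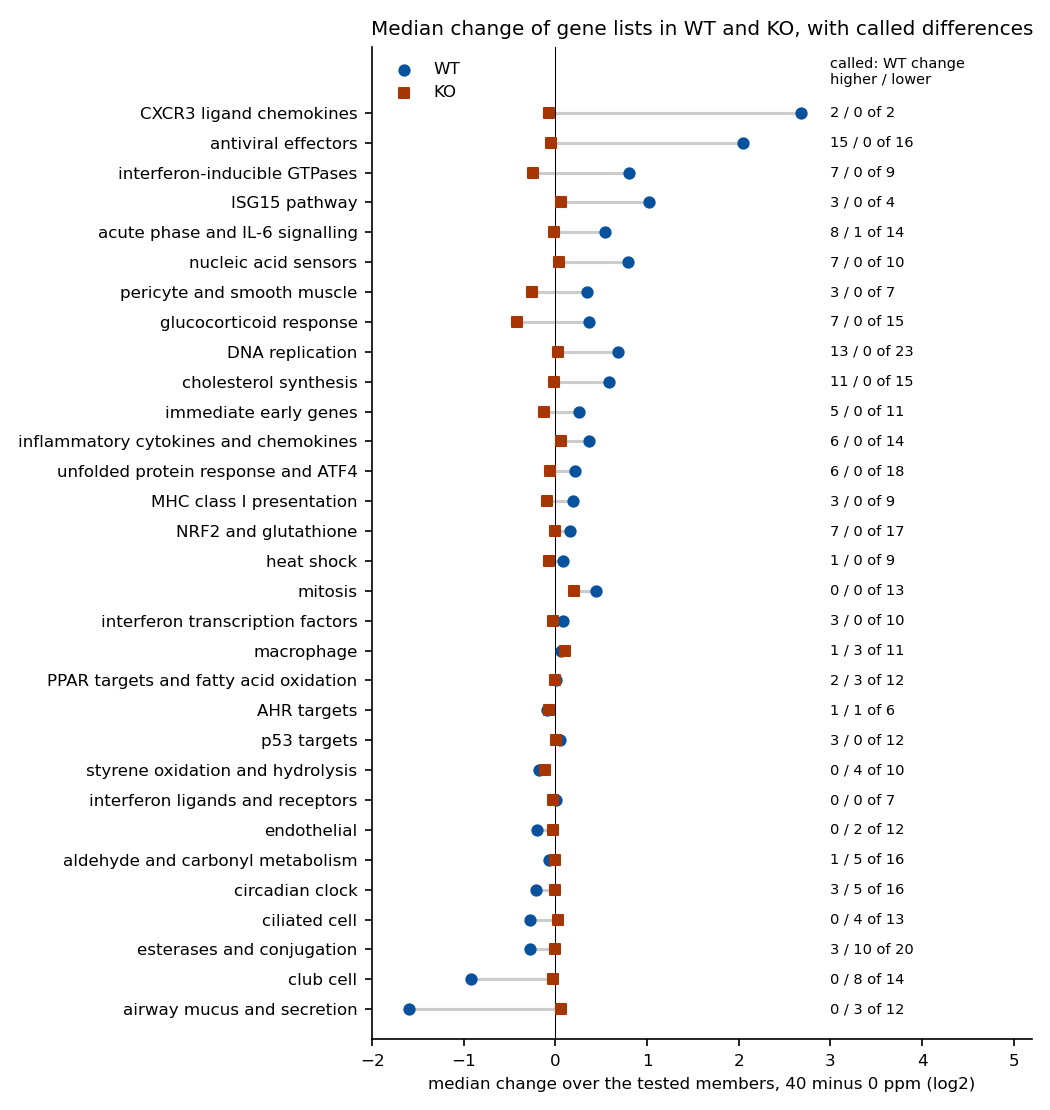
Median change from 0 to 40 ppm over the tested members of 31 gene lists in WT (circles) and KO (squares), in log2 units, with the number of members called higher and lower in WT than in KO at the right. Antiviral effectors (15 of 16 higher) lie far to the right in WT and club cell genes (8 of 14 lower) to the left, while the KO medians lie between -0.42 for the glucocorticoid list and 0.20 for mitosis.

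DNA replication genes were called higher in 13 of 23 and lower in none, against 7.08% and 6.45% of all genes. Their median change was 0.69 in WT and 0.03 in KO, and 22 of 23 rose in WT, against 13.5% of all genes. Uhrf1, which maintains DNA methylation at replication, read 4.61 to 5.26 in WT air and 6.03 to 6.57 in WT at 40 ppm, against 3.77 to 4.41 over both KO groups, with a difference of 1.53 ± 0.19. Rrm2, a subunit of ribonucleotide reductase, differed by 1.34 ± 0.18 and Pole, a DNA polymerase subunit, by 1.16 ± 0.13. Of 13 mitosis genes 5 rose in WT, but limma called none in the difference, with 2 (Cdk1 and Ccna2) at an unadjusted p under 0.05. The median change was 0.44 in WT and 0.20 in KO, and Cdk1, the mitotic kinase, had a difference of 0.84 ± 0.38 (adjusted p = 0.153, unadjusted 0.0381). Ccna2, a cyclin, was called in the fit of all 40 WT and KO arrays and without WT 0 ppm replicate 2, the highest WT air array for this list (5.46 against 4.67 to 5.00). The replication and mitosis lists were not tested against each other.

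Cholesterol synthesis genes were called higher in 11 of 15 and lower in none, against 7.08% and 6.45% of all genes. Their median changes were 0.58 in WT and -0.02 in KO. Hmgcs1, an early enzyme of the pathway, read 3.88 to 4.12 in WT air and 4.63 to 4.98 in WT at 40 ppm, against 3.22 to 3.86 over both KO groups, with a difference of 0.92 ± 0.13. Cyp51 differed by 1.02 ± 0.19, Fdps by 0.82 ± 0.15 and Nsdhl by 0.49 ± 0.09.

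Stress genes moved in part, and their counts stand beside 7.08% of all genes called higher and 6.45% called lower. In the NRF2 and glutathione list 7 of 17 were called higher and none lower. Gclc, the rate-limiting enzyme of glutathione synthesis, read 10.35 to 10.49 in WT air and 10.96 to 11.17 in WT at 40 ppm, against 9.99 to 10.20 over both KO groups, with a difference of 0.64 ± 0.08. Hmox1, heme oxygenase, differed by 1.67 ± 0.24 and Txnrd1, thioredoxin reductase, by 0.56 ± 0.10. Of 18 tested genes of the ATF4 pathway and unfolded protein response 6 were called higher, led by Atf3 (1.65 ± 0.23), a stress-induced transcription factor. Of 11 immediate early genes 5 were called higher, among them Egr1 (1.90 ± 0.30), Fos (1.11 ± 0.23) and Myc (0.74 ± 0.16). Of 12 p53 targets 3 were called higher, and the largest was Cdkn1a, the cell cycle inhibitor p21 (1.33 ± 0.25). Over the 12 the median difference was -0.01, and 5 rose and 3 fell in WT. Aen lost its call in the fit of all 80 arrays (adjusted p = 0.0672). Phlda3 lost its call there and in the fit of all 40 WT and KO arrays (adjusted p up to 0.113).

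For some genes the KO arm held a larger part of the difference. Fabp1, a fatty acid binding protein, read 7.20 to 7.47 in WT air and 6.03 to 6.52 in WT at 40 ppm, and 6.53 to 6.90 in KO air and 7.00 to 7.78 in KO at 40 ppm. Neither strain's groups overlapped, and the directions were opposite. Its WT change was -1.12 ± 0.13 (adjusted p = 2.6e-06), its KO change 0.54 (95% interval 0.28 to 0.81, adjusted p = 0.866) and its difference -1.67 ± 0.18 (4.01e-06). Among 12 tested targets of the PPAR fatty acid receptors, Fabp1 and Acaa1b (-1.19 ± 0.26) were among 3 called lower, and Acadl (0.50 ± 0.10) and Pdk4 were called higher, 1 of the list without KO 0 ppm replicate 2 or without both WT arrays that stood apart and 3 without WT 0 ppm replicate 5.

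Glucocorticoid response genes were called higher in 7 of 15 and lower in none, against 7.08% and 6.45% of all genes. Their median changes were 0.37 in WT and -0.42 in KO. Fkbp5, a chaperone induced by glucocorticoid, read 7.17, 8.61, 8.10, 8.001 and 8.97 in WT air and 8.63, 9.37, 9.65, 8.44 and 8.72 in WT at 40 ppm. In KO it read 7.35 to 7.81 in air and 6.74 to 7.31 at 40 ppm. The WT groups overlapped and the KO groups did not. Its WT change was 0.79 ± 0.26 (adjusted p = 0.0303), its KO change -0.54 (95% interval -1.08 to 0.01) and its difference 1.33 ± 0.37 (0.021). Fkbp5 had a difference of 0.71 with the mean of its probe sets and lost its call in the fit of all 80 arrays (0.065). Pdk4, a kinase that restrains glucose oxidation, differed by 1.46 ± 0.44 (0.0323), a call lost in 10 alternatives, and Map3k6, a stress kinase chosen for its KO change, by 1.41 ± 0.39 (0.0207). WT 0 ppm replicate 1, which carried squamous genes, was also the lowest WT air array for this list (8.75 against 9.03 to 9.57). Without it and WT 40 ppm replicate 3, the list had 4 called, and neither Map3k6 (1.17, adjusted p = 0.0657) nor Pdk4 (1.10, 0.099) passed.

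Clca1, a secreted protein of goblet cells, had the largest negative value and the largest KO change, but its arrays scattered. It read 5.62, 9.33, 6.85, 3.84 and 4.88 in WT air and 3.49, 3.81, 5.04, 4.97 and 5.48 in WT at 40 ppm. In KO it read 4.07, 3.41, 3.80, 5.95 and 3.84 in air and 8.10, 5.76, 6.27, 6.71 and 4.56 at 40 ppm. The groups overlapped in both strains. The difference was -3.61 ± 1.13 (adjusted p = 0.0391), with WT and KO changes of -1.54 ± 0.80 and 2.07 (95% interval 0.40 to 3.74). The call was lost in 17 alternatives, with adjusted p up to 0.0749 (-3.85, adjusted p = 0.0536, without both WT arrays that stood apart), and the mean of its probe sets gave -1.87.

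Circadian clock genes were called in both directions, 5 of 16 lower and 3 higher, against 6.45% and 7.08% of all genes. Dbp, an output factor of the clock, read 6.91 to 8.14 in WT air and 5.31 to 6.28 in WT at 40 ppm, against 6.45 to 7.79 and 6.82 to 7.96 in KO. It differed by -1.86 ± 0.40 (adjusted p = 0.00434), and by -1.74 (0.0122) without both WT arrays that stood apart, but missed the threshold in the fit of all 80 arrays (0.0705). Hlf, a related factor, differed by -1.04 ± 0.20, the period gene Per3 by -1.04 ± 0.22 and the cryptochrome gene Cry1 by 0.64 ± 0.14. All lungs were taken in the morning per the labels, but no hour is stated for each animal.

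Further genes with large negative differences were Mycl, a MYC family transcription factor (-1.92 ± 0.18, and -1.06 with the mean of its probe sets), Dcdc2a, a doublecortin family gene (-1.82 ± 0.24), Acsm1, a medium-chain acyl-CoA synthetase (-1.68 ± 0.39), and Cldn8, a tight junction claudin (-1.62 ± 0.24). Mycl read 6.01 to 6.39 in WT air and 3.93 to 4.71 in WT at 40 ppm, against 5.44 to 5.97 over both KO groups. For each of these genes the WT groups did not overlap and the KO groups did. The genes were picked by their difference on these same arrays, so this separation is no separate support.

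**Figure D4:**
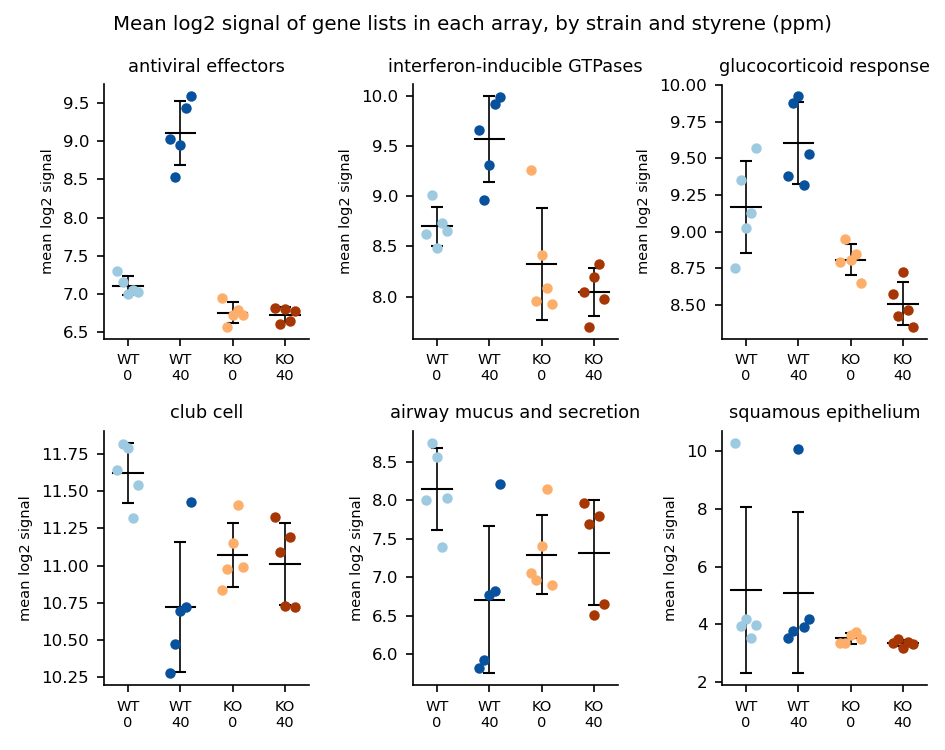
Mean log2 signal (y axis) of 6 gene lists in each array of the 4 groups, with points for arrays and black bars for the mean and SD (n = 5). Antiviral effectors separate the exposed WT arrays (8.53 to 9.59) from all others, while 1 array each stands apart for squamous epithelium in both WT groups, for GTPases in KO air and for club and mucus genes in WT at 40 ppm.

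The same genes at the other doses are set side by side here. The 10, 40 and 120 ppm groups of a strain share its air arrays, so these values are not independent of each other. Cxcl10 changed by 4.59, 4.23 and 4.89 at 10, 40 and 120 ppm in WT and by -0.05, 0.03 and 0.03 in KO. Prss22 changed by 0.89, 3.12 and 2.34 in WT and by 0.00, -0.01 and -0.08 in KO. Cyp1a1 changed by -0.84, -3.43 and -3.15 in WT and by -0.25, -0.56 and -0.31 in KO. Pigr and Acsm1 changed in WT by 0.33 and 0.14 at 10 ppm and by -1.60 and -1.53 at 40 ppm.

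The other strains were each fitted alone in the same way, over all 4 doses. At 40 ppm limma called no gene in TG (CYP2F1 humanized mice, 0% of 11406, 867 genes at an unadjusted p under 0.05) and 1 in CD-1 (0.00877%, 442 unadjusted). The median standard error was 0.109 in TG and 0.107 in CD-1, against 0.083 in WT. TG 0 ppm replicate 4 had an array median of 3.844, where the other TG air arrays had 4.07 to 4.128. The CD-1 gene was Pon1, which read 10.53 to 10.97 in CD-1 air and 8.80 to 9.81 at 40 ppm, a change of -1.46 ± 0.19 (adjusted p = 0.00255). In WT its change was -1.59 and in KO -0.11. CD-1 Cxcl10 read 3.22 to 4.13 in air and 5.44, 3.52, 3.87, 7.09 and 4.47 at 40 ppm, a change of 1.29 ± 0.67 that was not called. For Timp1, CD-1 40 ppm replicate 4 read 9.69 and the other 4 exposed CD-1 arrays 6.22 to 6.67. Irf7 changed by 2.06 ± 0.39 in CD-1 (adjusted p = 0.261) and by -0.02 in TG. It read 4.64 to 5.55 in CD-1 air and 6.28 to 8.57 in CD-1 at 40 ppm, without overlap. The CD-1 groups also did not overlap for Oasl1 (3.888 to 4.084 against 4.485 to 7.242), Mx1 and Apol9a. All CD-1 air arrays read these 3 below the level minimum of 4.28. The CD-1 groups overlapped for Cxcl10, Rsad2 and Zbp1. Differences between these strains and WT or KO were not tested.

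**Figure D5:**
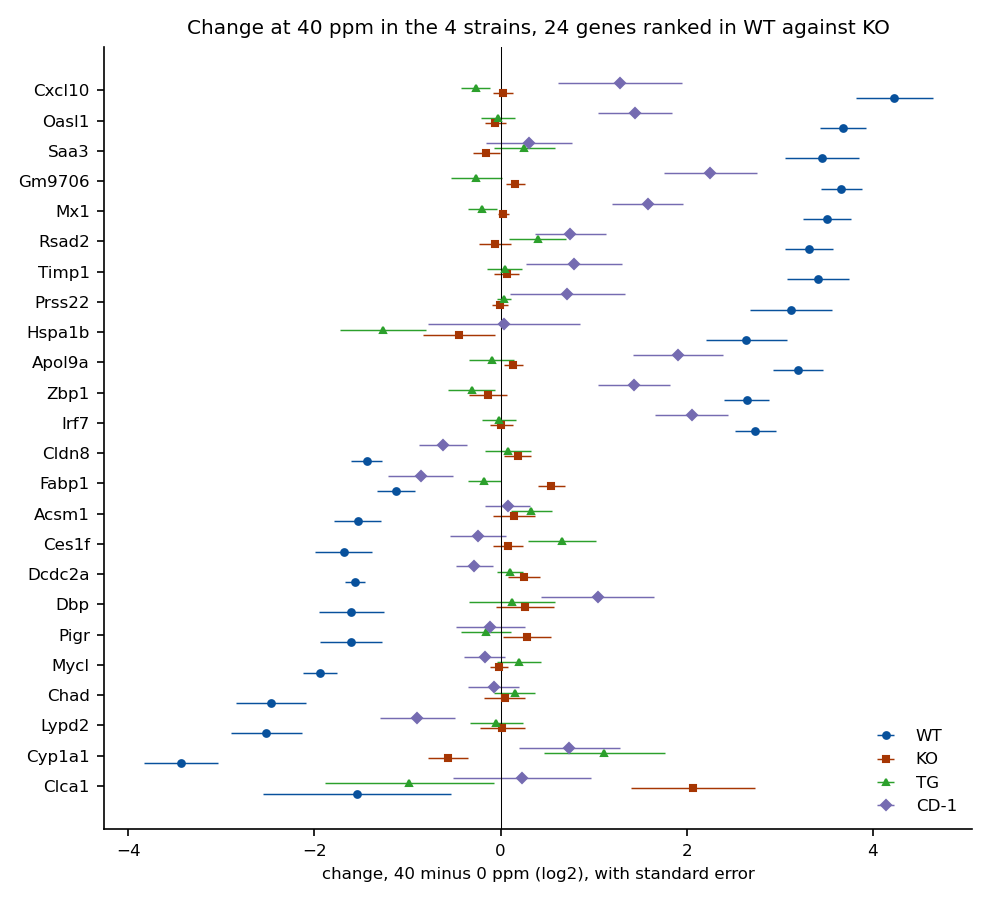
Change from 0 to 40 ppm (x axis, log2) with its standard error in WT, KO, TG and CD-1, each strain fitted alone (n = 5 arrays per group), for the 24 genes with the largest called differences between WT and KO. WT values lie far from 0, KO and TG values mostly near it, and CD-1 values of interferon genes between, such as 1.29 for Cxcl10 and 2.06 for Irf7, none of which was called.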

How the data were processed

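Total RNA of whole lung was prepared for Affymetrix arrays with an IVT PLUS kit that reads the 3' ends of transcripts, per the labels' protocols. The authors deposited 1 table of log2 signals for 45037 probe sets on 80 arrays, and RMA and Partek are named in the submitters' processing notes. The labels state neither their versions and settings nor whether all arrays were normalized together. Arrays give no read depth, so their number limits the precision.

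Probe sets with 1 gene symbol in the platform annotation were kept (28898, with 551 naming several genes and 15588 not listed), and each of 17097 genes was read by the probe set whose mean over the arrays was highest. Genes above the table median of 4.28 in at least 5 of 80 arrays were tested (11406). limma 3.58.1 in R 4.3.3 fitted 4 group means to 20 arrays (lmFit, eBayes, 16 residual degrees of freedom). Called means a Benjamini-Hochberg adjusted p under 0.05 over all 11406 genes, and every adjusted p in the text comes from limma. The code was tested on simulated data.

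The labels call the samples biological replicates and say no more on their origin, so p-values measure the spread between these samples. Same-numbered arrays did not deviate together (6 of 30 correlations over 0.1, median -0.054), so the numbers were not taken as pairs. Alternatives were the level filter, scaling, arrays in the fit, the replicate block, the mean of all probe sets, the variance model and leaving out each array. Leaving out both WT arrays with squamous genes was chosen after seeing the data. Genes named were Cyp2f2, the 12 largest called differences in each direction, the 6 called genes with the largest KO change and up to 4 members of each list with the lowest p, plus members of the interferon and styrene oxidation lists. Plgrkt, Slc35a4, Wfdc6a, Scgb1a1, Scgb3a2, Fam110a, Krt4, Krt5 and the members named for a lost or narrowly missed call were named after their values were seen. The comparison, members and lists were chosen with earlier results of these data known. Promoter sequences are from RefSeq.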

Additional observations from a re-analysis of the deposited data

Results flagged for a closer look

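The difference in response between the strains passed limma's interaction test (adjusted p under 0.05) for 808 genes with the higher change in WT and 736 with the lower. Among 532 sets of 5 arrays (1 named gene in 1 group), 27 values stood apart from the other 4 by Dixon's criterion, 5.08% of the sets, where chance flags about 1 in 20.

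KO 0 ppm replicate 4 was the highest of its group for airway genes, at 5.948 for Clca1, 9.793 for Lypd2, 8.98 for Chad, 7.507 for Cdhr3 and 8.701 for Muc5b. KO 0 ppm replicate 1 was the highest for Oasl1 (4.189), Iigp1 (9.566) and Ccna2 (5.126). WT 40 ppm replicate 5 was the highest for Chad (7.971) and Ccdc153 (10.044). WT 0 ppm replicate 1 was the highest for Cxcl10 (4.285) and Egr1 (8.258).

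Other values that stood high were Tiparp at 9.233 in WT 0 ppm replicate 2, Pole at 4.779 in WT 40 ppm replicate 4 and Atf4 at 10.614 in WT 40 ppm replicate 3. In KO these were Socs3 at 6.736 in 40 ppm replicate 5, Hmgcs1 at 3.858 in 0 ppm replicate 5 and Sec14l3 at 12.924 in 40 ppm replicate 1. Values that stood low in WT air were Ccl12 at 3.604 and Aen at 6.599 in replicate 5, Ahr at 9.58 in replicate 2 and Myc at 5.754 in replicate 3. Low values in KO air were Pole at 3.271 in replicate 3, Cnn1 at 6.532 in replicate 5 and Sec14l3 at 12.628 in replicate 2. Low values in KO at 40 ppm were Tiparp at 8.165 in replicate 2 and Ifnar2 at 9.186 in replicate 1.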

How the results depend on the processing

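The number of called differences was 1030 to 1590 under the 10 settings that changed the filter, scaling, arrays in the fit, block, probe sets or variance model, and 1275 to 1633 with 1 array left out. Genes with the higher change in WT numbered 529 in the fit of all 80 arrays and 670 to 847 with 1 array left out. Of the 133 named genes Ifnar2, which was not called, turned from -0.08 to 0.06 with the mean of all probe sets, and no other changed sign in a setting run. Over all called genes the mean of all probe sets turned the sign of 4. The number of genes with a WT part under 0.25 was 5 with the level filter on the 20 arrays, 1 with centred arrays, 0 with all 80 arrays, 5 with the mean of all probe sets and 1 to 11 with 1 array left out. Genes that differed between KO and WT in air numbered 2345 with centred arrays and 2168 after quantile normalization. KO calls numbered 0 to 1 with 1 array left out. The cause was not tested. The signal near the floor of the array limits what could be read for genes below 4.28.

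With the replicate number as a block (replicate block), 1460 genes were called, 1376 of them among the 1544, and 5 had a WT part under 0.25. Of 20 arrays 1 was closest to an array of its own number.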
